A study of Mus musculus with 14 samples.

Results

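Ppp1r9a, Dbn1, Pak2, Rac1, Homer2 and Dlg2 encode scaffold proteins and actin regulators of dendritic spines. The regions listed for them were compared between nicotine and saccharin in a ChIP-seq study of H3K4me3, a histone mark of active promoters. The tissue was cerebral cortex from C57BL/6J mice at an age of 3 months. Every region whose gene symbol was 1 of these 6 was taken. This gave 7 regions of 14881 (11388 of which carried a gene name), 1 per gene and 2 for Dlg2. The genes had been chosen from the differences between nicotine and saccharin in both exposures of these data, so those differences are given as a description and without a test.

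The 14 libraries formed 4 groups: 4 of postnatal-only nicotine, 4 of postnatal-only saccharin, 3 of nicotine before and after birth and 3 of saccharin before and after birth. Nicotine was compared with saccharin, which stands for the control solution. Per the labels' treatment text, given alike for all samples, the solutions were delivered from conception, withdrawn from the offspring at day 21, and followed by rest to day 90. That text does not describe a postnatal-only course, which is known here from the group names. No transgene or mutant allele is named. The labels do not say that libraries came from separate mice, so the spread given may be technical. The tissue was cortex in bulk, and more cells carrying a mark cannot be told apart from more mark per cell.

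A spine is a small protrusion of a dendrite that carries most excitatory synapses of the cortex. Its shape depends on a mesh of actin filaments, which proteins such as drebrin and neurabin bind and small GTPases such as Rac1 remodel through kinases of the PAK family. Under the membrane, scaffolds such as Homer proteins and the membrane-associated guanylate kinase Dlg2 hold glutamate receptors and link them to signalling proteins. H3K4me3 lies at the promoters of most active genes, and is strongest where the promoter is rich in CpG dinucleotides.

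Each exposure came as its own table of adjusted read counts, called signal below, and levels are not compared between the tables. A postnatal library summed to between 2004918 and 2489860, and a library of the other exposure to between 1445810 and 2372855. The sequencing depth is unknown, and intervals of counting error could not be given. In each postnatal group libraries 1 and 2, and libraries 3 and 4, differed by 1.01 to 1.08 times counting noise, against 2.21 to 2.71 times for the other pairs. That ratio treats the adjusted signal as raw counts, so it is only a rough guide. The mean of libraries 1 and 2, or of 3 and 4, served as 1 sample. This gave n = 2 against 2 in the postnatal exposure and n = 3 against 3 in the other. The 15 strongest regions were those with a mean over 3000 in the postnatal libraries, and the same regions were used for the other exposure. They took 8.30% to 25.5% of a postnatal library and 19.1% to 49.7% of a library of the other exposure. For description, 9 of 13 neuron and 9 of 12 oligodendrocyte markers had a region. So did 4 of 9 astrocyte, 2 of 8 microglia and 6 of 9 endothelial markers. Of 8 genes of other tissues 1 had a region. These counts cannot establish the tissue, since having a region also varied with promoter CpG content, as given below. Neuron markers without a listed region included Gad1, Neurod6 and Syt1.

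The promoters of these genes differ in CpG content, and 5 are shown. The H3K4me3 levels given further on also differ between the genes, but a link to CpG content was not tested in them. RefSeq windows of 300 bases on build GRCm38.p6, from 250 before to 50 after a transcription start, were at hand for 4 of the 6 genes. Pak2 and Rac1 had no entry. The regions are on build mm9, and no position was carried from one build to the other, so it is not known which window a region covers. Each window is written 5′ to 3′ along the gene, with every CpG in capitals. The Homer2 window (chr7:81706876-81707175, minus strand), the second Ppp1r9a window (chr6:4903061-4903360, plus strand) and the Dbn1 window (chr13:55488027-55488326, minus strand) are dense in CpG.
Homer2 window 1: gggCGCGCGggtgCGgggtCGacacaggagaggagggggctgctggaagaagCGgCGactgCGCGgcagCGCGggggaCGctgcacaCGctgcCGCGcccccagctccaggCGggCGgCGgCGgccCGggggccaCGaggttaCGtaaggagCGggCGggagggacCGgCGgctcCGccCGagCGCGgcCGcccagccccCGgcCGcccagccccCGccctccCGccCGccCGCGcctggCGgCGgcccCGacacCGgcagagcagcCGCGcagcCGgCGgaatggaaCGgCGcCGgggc
Ppp1r9a window 2: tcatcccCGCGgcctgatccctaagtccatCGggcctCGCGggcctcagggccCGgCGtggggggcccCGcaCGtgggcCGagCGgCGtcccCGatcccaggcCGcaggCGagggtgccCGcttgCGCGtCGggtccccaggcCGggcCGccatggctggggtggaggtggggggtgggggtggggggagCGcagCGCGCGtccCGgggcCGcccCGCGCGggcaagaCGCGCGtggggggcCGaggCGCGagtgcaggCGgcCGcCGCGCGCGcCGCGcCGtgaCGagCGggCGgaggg
Dbn1 window: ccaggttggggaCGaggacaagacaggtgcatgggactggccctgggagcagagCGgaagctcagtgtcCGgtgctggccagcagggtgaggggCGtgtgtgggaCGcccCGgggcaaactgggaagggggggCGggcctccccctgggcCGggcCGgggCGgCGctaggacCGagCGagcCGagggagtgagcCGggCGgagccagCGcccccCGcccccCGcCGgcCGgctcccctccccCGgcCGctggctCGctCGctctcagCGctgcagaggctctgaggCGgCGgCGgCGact
Dlg2 windows 2 and 3 (chr7:92062144-92062443 and chr7:92234720-92235019, both plus strand) hold 1 and 2.
Dlg2 window 2: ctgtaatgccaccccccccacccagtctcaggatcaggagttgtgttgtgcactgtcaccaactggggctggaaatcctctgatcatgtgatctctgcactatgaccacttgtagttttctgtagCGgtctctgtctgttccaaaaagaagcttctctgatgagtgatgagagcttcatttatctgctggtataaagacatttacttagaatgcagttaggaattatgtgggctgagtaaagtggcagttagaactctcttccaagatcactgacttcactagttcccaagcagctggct
Dlg2 window 3: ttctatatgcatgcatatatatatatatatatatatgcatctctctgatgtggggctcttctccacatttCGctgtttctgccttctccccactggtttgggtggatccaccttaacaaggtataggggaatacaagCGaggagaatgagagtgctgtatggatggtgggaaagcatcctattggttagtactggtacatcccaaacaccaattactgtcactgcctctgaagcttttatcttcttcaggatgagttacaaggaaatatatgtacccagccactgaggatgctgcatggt

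These Homer2, Ppp1r9a and Dbn1 windows held 49, 48 and 30 CpG dinucleotides, more than 99.0%, 98.8% and 88.3% of the 32851 windows of the table. The 3 Dlg2 windows held 3, 1 and 2. A second Homer2 start had 3 and the first Ppp1r9a start had 10. GC content was 82.3%, 82.0% and 76.7% in the printed Homer2, Ppp1r9a and Dbn1 windows, and 46.0% and 43.0% in the printed Dlg2 windows. The letters GGGCGG, the core of the GC box, occurred 8 times in Homer2 window 1, 2 times in Ppp1r9a window 2, once in Ppp1r9a window 1 and 4 times in the Dbn1 window. They occurred in none of the 3 Dlg2 windows, while 35.7% of all windows held them. TATAAA was found in Dlg2 window 2 and in Homer2 window 2 (13.6% of all windows), and CACGTG in Ppp1r9a window 2 (7.15%). TGACGTCA (1.79%), CCGGAAG (8.86%), CCATNTTGG (1.67%) and the motif of the factor NRF1 (4.60%) were in no window of these genes. All motifs were searched on both strands, matches of 1 motif could overlap, and a match is a string of letters and not a bound site.

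Among genes with a single promoter window, few with under 5 CpG had a region, and the median level per kb was higher in each class of more CpG. A region was listed for 2.26% of the 9079 with 0 to 4 CpG, against 23.1% of the 5897 with 5 to 14, 65.9% of the 3772 with 15 to 24 and 62.9% of the 4114 with 25 or more. Where the gene also had a single region, the median signal per kb in postnatal saccharin samples was 30.8 with 0 to 4 CpG, 36.2 with 5 to 14, 52.1 with 15 to 24 and 89.9 with 25 or more. Over these 6338 genes Pearson's r between CpG count and log2(signal per kb + 1) was 0.468 and Spearman's rank correlation 0.468. This is a description across genes, which share their libraries and are not independent replicates.

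Signal was divided by region width to compare genes. In postnatal samples the order in saccharin was Pak2, Rac1, Homer2, Dbn1, Ppp1r9a and the 2 Dlg2 regions. Pak2 had 166 ± 2.61 per kb in nicotine samples and 145 ± 2.84 in saccharin samples (SD, n = 2 each). Rac1 had 148 ± 3.05 with nicotine and 137 ± 0.221 with saccharin. Both lay above the median named region, at 56.5 per kb in saccharin samples, and Pak2 exceeded 91.1% of named regions there. Homer2 had 125 ± 5.16 with nicotine and 103 ± 4.45 with saccharin, and Dbn1 98.2 ± 12.3 and 92.8 ± 8.78. Homer2 and Dbn1 were the only neighbours in this order that differed by less than the sum of their SDs in saccharin samples (10.5 against 13.2 per kb). Ppp1r9a had 99.8 ± 6.50 with nicotine and 79.2 ± 1.33 with saccharin. Below the median stood Dlg2 region 1, with 21.7 ± 3.36 and 32.1 ± 4.61, and Dlg2 region 2, with 18.7 ± 8.12 and 20.6 ± 6.77.

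After exposure before and after birth the order in saccharin samples was similar, with Ppp1r9a above Dbn1. Pak2 had 97.6 ± 9.17 per kb in nicotine samples and 99.2 ± 8.01 in saccharin samples (SD, n = 3 each), where the median named region had 34.9. Rac1 had 93.7 ± 9.51 with nicotine and 70.8 ± 3.01 with saccharin, and Homer2 77.5 ± 7.02 with nicotine and 59.9 ± 6.50 with saccharin. Ppp1r9a had 61.8 ± 0.602 with nicotine and 59.4 ± 3.07 with saccharin, and Dbn1 60.7 ± 4.11 with nicotine and 48.1 ± 2.93 with saccharin. These stood above the median, and both Dlg2 regions below it in saccharin samples. Dlg2 region 1 had 37.5 ± 17.6 with nicotine and 23.9 ± 6.86 with saccharin, and region 2 20.5 ± 2.05 with nicotine and 21.8 ± 5.27 with saccharin. Homer2 and Ppp1r9a differed by less than the sum of their SDs in saccharin samples (0.514 against 9.57 per kb), and so did the 2 Dlg2 regions (2.08 against 12.1). In both exposures the 2 Dlg2 regions were thus the weakest of the 7 in saccharin samples.

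**Figure D1:**
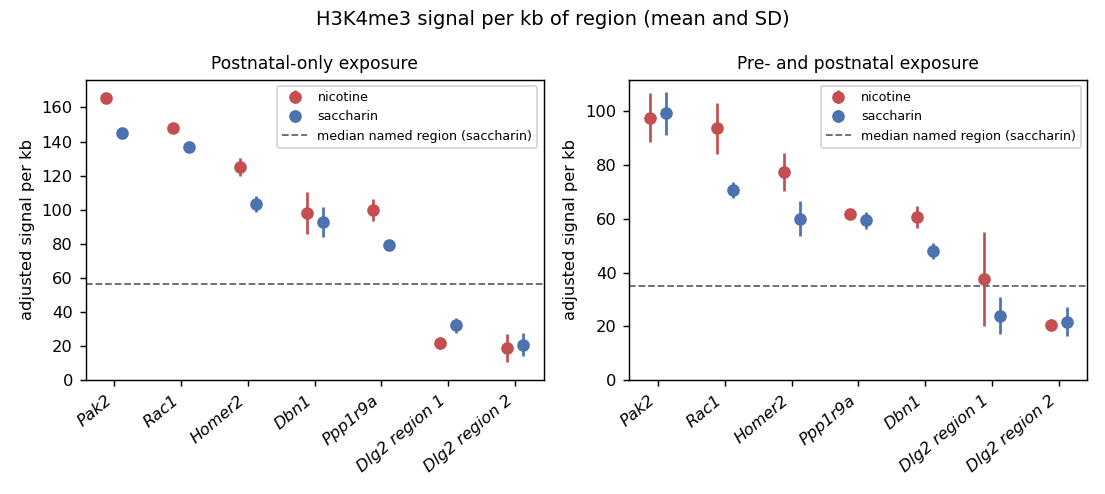
Adjusted H3K4me3 signal per kb of region (y axis) for the 7 regions, in order of the saccharin mean (x axis), for the postnatal table on the left and the pre- and postnatal table on the right. Points are group means with the SD over samples, nicotine left of saccharin, and the dashed line is the median of 11388 named regions in saccharin samples (56.5 and 34.9); the Dlg2 regions are the only ones with a saccharin mean below it.

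Ppp1r9a and Dbn1 encode proteins that bind actin filaments. Ppp1r9a is neurabin, which also brings protein phosphatase 1 to spines, and its region lies on chromosome 6, 4852584 to 4854268 (mm9, as all positions of regions). Its postnatal signal was 161 and 176 in nicotine samples, against 135 and 132 in saccharin samples. Both nicotine samples lay above both saccharin samples, and the difference on the log2(signal + 1) scale was 0.33 ± 0.13 (SE). This SE and those of the other log2 differences come from limma, which takes the variance largely from a trend over all regions. They do not measure the spread of a region itself. After exposure before and after birth the signal of Ppp1r9a was 105, 103 and 104 with nicotine, against 105, 101 and 94.7 with saccharin. These groups overlapped, and the difference was 0.06 ± 0.17. Its SD within groups was 0.05 on the log2 scale in that exposure, and 0.365% of 1918 regions of like mean had a smaller one.

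Dbn1 encodes drebrin, which coats and stabilises actin filaments in spines. Its region on chromosome 13, 55587107 to 55589853, was the widest of the 7 (2747 bp, above 95.4% of all regions). The postnatal signal was 246 and 294 in nicotine samples, against 272 and 238 in saccharin samples. The groups overlapped (log2 difference 0.08 ± 0.12), and the sign turned without nicotine libraries 3 and 4 (-0.05) or without saccharin libraries 3 and 4 (-0.02). Exposure before and after birth gave 177, 155 and 168 with nicotine, against 124, 133 and 139.9 with saccharin. Here all nicotine samples lay above all saccharin samples, with a log2 difference of 0.33 ± 0.15.

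Rac1 and Pak2 stand for the signalling step. Rac1 is a small GTPase that drives branched actin growth and spine enlargement, and its region lies on chromosome 5, 144287269 to 144289466. The postnatal signal was 329.6 and 320.1 in nicotine samples, against 301 and 300.4 in saccharin samples. The groups did not overlap, although the log2 difference was small at 0.11 ± 0.10. It was 0.04 under quantile normalization. With exposure before and after birth Rac1 had 223, 212 and 183 with nicotine, against 149, 156 and 162 with saccharin. All nicotine samples lay above all saccharin samples, with a log2 difference of 0.40 ± 0.15 or 1.32-fold.

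Pak2 is a kinase that active Rac1 switches on and that acts on actin turnover through LIM kinase. Its region lies on chromosome 16, 32078219 to 32079924. The postnatal signal was 286 and 279.7 in nicotine samples, against 251 and 244 in saccharin samples. These groups did not overlap (log2 difference 0.19 ± 0.11), and the spread within groups was small: 5.75% of 1512 regions of like mean had a smaller one. Pak2 in the other exposure had 149, 178 and 173 with nicotine, against 177, 153 and 177 with saccharin. The groups overlapped, with a log2 difference of -0.02 ± 0.15 that changed sign without nicotine library 1 (0.05), saccharin library 1 (0.0087) or saccharin library 3 (0.01). At Pak2 and Ppp1r9a the groups lay apart after postnatal exposure and overlapped in the other, and at Dbn1 the reverse was seen, but the difference between the exposures was not tested.

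Homer2 and Dlg2 are scaffolds of the postsynaptic density. Homer2 joins metabotropic glutamate receptors to calcium stores and to Shank proteins, and its region lies on chromosome 7, 88851023 to 88852535. The postnatal signal was 195 and 183 in nicotine samples, against 161 and 152 in saccharin samples. With exposure before and after birth it was 117, 128 and 107 with nicotine, against 87.4, 82.9 and 102 with saccharin. In both exposures every nicotine sample lay above every saccharin sample, as was also the case at Rac1 and at none of the other member regions. Evl and some other genes of the lists described below showed the same. The share of all regions with this pattern was not counted. The log2 differences at Homer2 were 0.27 ± 0.12 after postnatal exposure and 0.37 ± 0.18 after exposure before and after birth, or 1.21-fold and 1.29-fold.

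Dlg2 anchors NMDA receptors and potassium channels at the membrane. Its regions lie on chromosome 7, at 98238868 to 98240188 (region 1) and 98410731 to 98412488 (region 2), with starts 171863 bp apart. In the RefSeq table the starts of Dlg2 windows 2 and 3 lie 172576 bp apart on their own build. The postnatal signal of region 1 was 31.8 and 25.6 in nicotine samples, against 38.1 and 46.7 in saccharin samples. Both nicotine samples lay below both saccharin samples (log2 difference -0.55 ± 0.30). In the other exposure region 1 held 26.3, 49.5 and 72.7 with nicotine, against 40.5, 22.3 and 31.8 with saccharin. These groups overlapped, with a log2 difference of 0.56 ± 0.34. It was 0.23 without nicotine library 4, 0.95 without nicotine library 1 and 0.34 without saccharin library 2. In a fit blocked on replicate number it was 0.01. That fit takes the difference from the shared numbers 1 and 3 only, so nicotine library 4 and saccharin library 2 do not enter it. The SD of region 1 within groups was 0.59 on the log2 scale, and 91.9% of 2004 regions of like mean had a smaller one.

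Region 2 of Dlg2 did not separate the treatments. The postnatal signal was 43.0 and 22.8 with nicotine, against 27.8 and 44.6 with saccharin (log2 difference -0.16 ± 0.35), and the sign turned without nicotine libraries 3 and 4 (0.28) or saccharin libraries 3 and 4 (0.17). Its signal in the other exposure was 32.2, 36.8 and 39.3 with nicotine, against 42.6, 44.6 and 27.7 with saccharin (-0.06 ± 0.29). The groups overlapped in both exposures. The 2 regions of the gene did not keep a fixed ratio: region 2 over region 1 was 1.35 and 0.894 in postnatal nicotine samples and 0.731 and 0.956 in postnatal saccharin samples, and ran from 0.540 to 1.22 with nicotine and from 0.871 to 2.00 with saccharin in the other exposure.

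**Figure D2:**
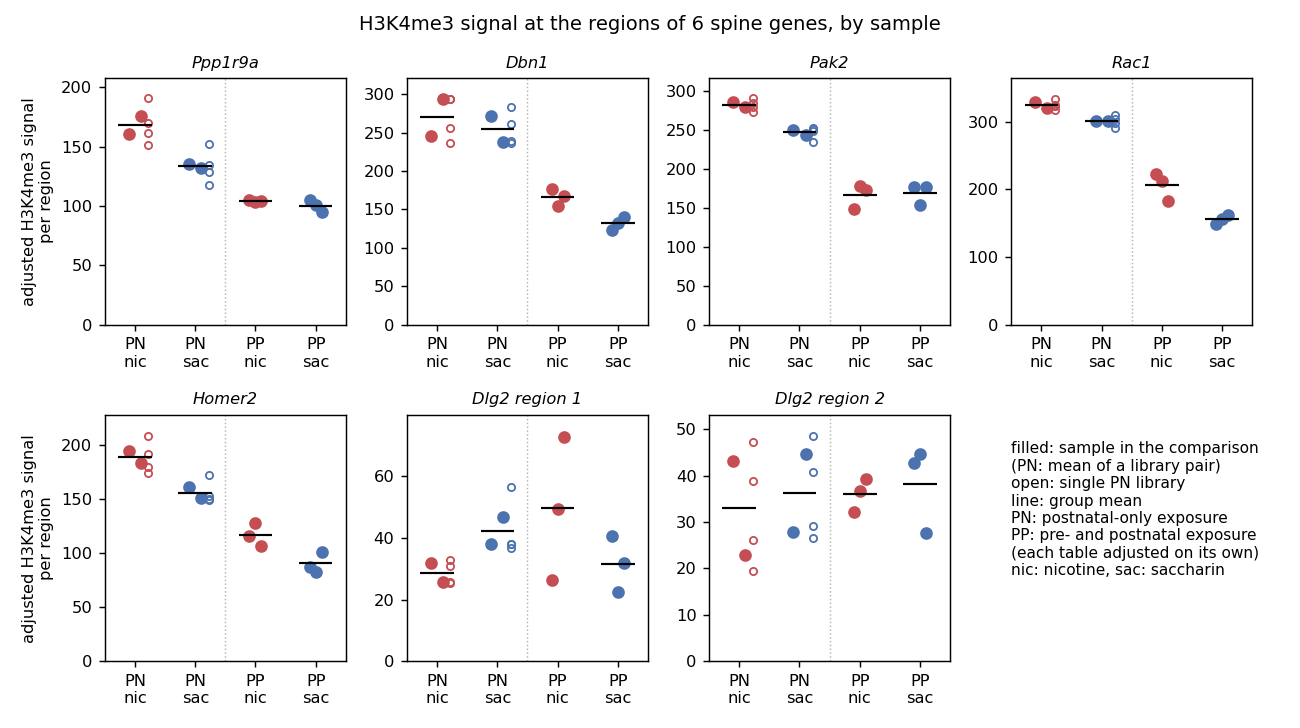
Adjusted H3K4me3 signal per region (y axis, from 0) for each of the 7 regions in the 4 groups (x axis), nicotine in red left of saccharin in blue for each exposure. Filled points are the samples compared, open points the single postnatal libraries and lines the group means; at Rac1 and Homer2 the nicotine samples lie above the saccharin samples in both exposures, and at Dlg2 the samples scatter most relative to their level.

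The difference lay above 0 at 5 of the 7 regions in either exposure, at Ppp1r9a, Dbn1, Rac1 and Homer2 in both, at Pak2 after postnatal exposure alone and at Dlg2 region 1 in the other alone. Of all tested regions 49.1% lay above 0 after postnatal exposure and 50.5% after exposure before and after birth. Postnatally, 4 of the 7 regions lay apart with nicotine higher, where 15.0% of 14873 tested regions did so, and 1 (Dlg2 region 1) with nicotine lower, where 14.0% did. In the other exposure 3 of 7 lay apart with nicotine higher, where 4.49% of 14879 did, and 0 with nicotine lower, where 4.46% did. Since these contrasts were used to pick the genes, nothing is read from the excess. The median difference over the 7 regions was 0.11 in the postnatal table and 0.33 in the other, against -0.0036 and 0.0027 over all tested regions. In limma 0 regions of the table passed an adjusted p under 0.05 in either exposure (0% called), and so 0 of the 7. An unadjusted p under 0.05 was reached by 281 regions of the postnatal table and 534 of the other. No alternative in the closing section called any of the 7 regions between the treatments.

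**Figure D3:**
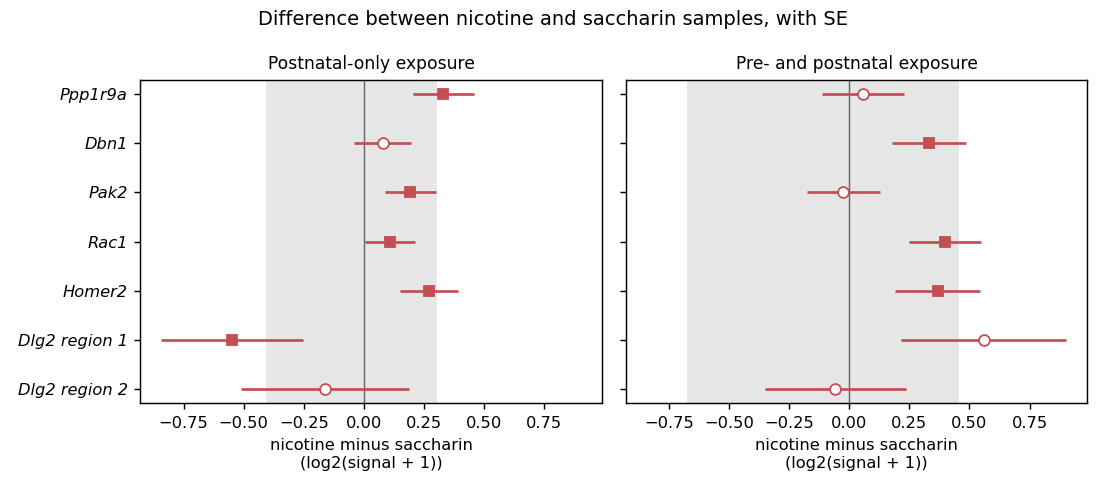
Nicotine minus saccharin on the log2(signal + 1) scale (x axis) with its limma SE for the 7 regions (y axis), in postnatal-only exposure on the left and exposure before and after birth on the right. Filled squares mark regions where the groups did not overlap, open circles those where they did, and the grey band holds the central 90% of all tested regions (-0.40 to 0.30 and -0.67 to 0.45).

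The postnatal samples fall into a high class (nicotine libraries 1 and 2, saccharin libraries 3 and 4) and a low class by how much of their signal the 15 strongest regions took. In the high class the share was 25.2% in the nicotine sample and 18.7% in the saccharin sample, and in the low class 10.04% in the nicotine sample and 8.47% in the saccharin sample. This split crosses treatment and was not used to pick the genes, so a fit was run on it. It was made from the same postnatal signal, at regions other than the 7, with a single sample per treatment in each class. The p values below therefore describe this split and are not an independent test. Dlg2 region 2 held 43.0 and 44.6 in the high class, against 22.8 and 27.8 in the low class, a log2 difference of 0.77 ± 0.24 (SE; limma adjusted p = 0.0267). It was the only one of the 7 regions called, where 5.92% of 14873 regions were (881), and 4.80% were higher in the high class (714). The call was lost under quantile normalization (0.55, adjusted p = 0.205). The variance in that fit came from a trend over all regions, so the p does not measure the spread of this region itself.

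The other 6 regions did not pass that test. Dbn1 held 246 and 238 in the high class, against 294 and 272 in the low class, a log2 difference of -0.22 ± 0.10 (limma adjusted p = 0.197). Within the classes the nicotine sample of Dbn1 lay above the saccharin sample by 0.05 in the high class and 0.11 in the low class on the log2 scale. Dlg2 region 1 differed by 0.30 ± 0.23 between the classes (limma adjusted p = 0.527), while its nicotine sample lay below the saccharin sample by similar amounts in both (-0.54 in the high class and -0.56 in the low class). The class difference was -0.08 at Ppp1r9a, 0.02 at Rac1, -0.0039 at Pak2 and -0.0017 at Homer2 on the log2 scale, with limma adjusted p from 0.768 to 0.995. At these 4 genes the nicotine sample lay above the saccharin sample in both classes, by 0.28 and 0.38 at Ppp1r9a and by 0.36 and 0.19 at Homer2. That follows from groups that do not overlap and adds no support.

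In the other exposure the share in these regions was 19.1%, 49.7% and 41.9% in nicotine libraries 1, 3 and 4, and 39.9%, 28.8% and 33.1% in saccharin libraries 1, 2 and 3. Dlg2 region 1 was lowest in nicotine library 1 (26.3) among the nicotine libraries, and in saccharin library 2 (22.3) among the saccharin libraries, which had the lowest share of their groups. Their part in its difference was not tested beyond a fit with the share as a covariate, which gave 0.44. The differences at Rac1, Homer2 and Dbn1 kept their sign in all 17 alternatives for that exposure, with ranges of 0.34 to 0.48, 0.30 to 0.45 and 0.28 to 0.38. Groups that do not overlap keep their sign when 1 sample is left out, and some alternatives change only the variance. The kept sign therefore adds no support.

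**Figure D4:**
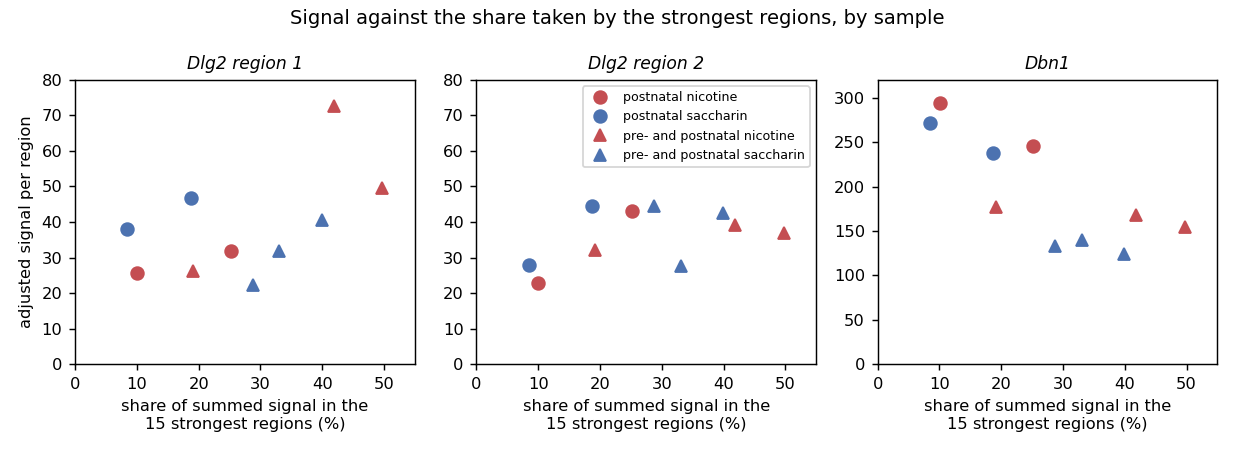
Adjusted signal per region (y axis, from 0) against the share of summed signal in the 15 strongest regions (x axis, percent) for Dlg2 region 1, Dlg2 region 2 and Dbn1, each point 1 sample. Circles are postnatal samples and triangles those of exposure before and after birth, in red for nicotine and blue for saccharin; among the circles Dlg2 region 2 is higher, and Dbn1 lower, at the higher shares.

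Other genes of the same machinery were taken from 3 lists, in which the region of highest mean stood for a gene and the 6 members are left out of the counts below. The lists hold 0 genes called by limma in either direction and either exposure, and a gene can stand in more than 1 list. In the list of small GTPases of the actin cytoskeleton with their regulators and effectors, 42 of 50 genes had a region. Of 40 other genes, 26 lay above 0 after postnatal exposure and 26 after exposure before and after birth (median 0.05 and 0.09 on the log2 scale). Of the 40, 10 lay apart with nicotine higher after postnatal exposure and 3 with nicotine lower, where 15.0% and 14.0% of all regions did. After exposure before and after birth 4 lay apart with nicotine higher and 2 with nicotine lower, where 4.49% and 4.46% of all regions did. Rnd3, a small GTPase that opposes actomyosin contraction, had the largest negative postnatal difference (119.7 ± 4.22 in nicotine samples and 150.3 ± 5.90 in saccharin samples, SD, n = 2 each; -0.33 ± 0.13), and its groups lay apart in the same direction after exposure before and after birth (78.2 ± 6.28 and 95.8 ± 11.3; SD, n = 3 each). Among genes with a mean of at least 20, the extremes in the other exposure were Pak7, another PAK kinase (0.47 ± 0.33), and Cdc42ep4, an effector of Cdc42 (-0.40 ± 0.28), whose groups overlapped.

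In the list of actin-binding and actin-remodelling proteins 46 of 54 genes had a region. Of 44 other genes 28 lay above 0 after postnatal exposure (median 0.03) and 23 after exposure before and after birth (median 0.02). After postnatal exposure 9 lay apart with nicotine higher and 3 with nicotine lower (20.5% and 6.82% of the 44, against 15.0% and 14.0% of all regions), and in the other 3 and 2 (6.82% and 4.55%, against 4.49% and 4.46%). Limk2, a kinase of cofilin, had the largest negative postnatal difference (-0.13 ± 0.20), and Ppp1r9a itself the largest positive one of the whole list. With exposure before and after birth the extremes among genes with a mean of at least 20 were Evl, which promotes filament elongation, and Arpc1b, a subunit of the complex that branches actin. The signal at Evl was 194 ± 21.98 in nicotine samples and 145 ± 17.8 in saccharin samples (SD, n = 3 each; 0.42 ± 0.16), and at Arpc1b 23.5 ± 6.60 and 32.9 ± 1.31 (-0.50 ± 0.33).

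In the list of postsynaptic scaffolds 31 of 34 genes had a region. Of 29 other genes 18 lay above 0 after postnatal exposure and 13 after exposure before and after birth, with medians of 0.03 and -0.0064. The groups lay apart at 5 genes with nicotine higher and 3 with nicotine lower in the postnatal table (17.2% and 10.3% of the 29, against 15.0% and 14.0% of all regions), and at 2 and 2 in the other (6.9% each, against 4.49% and 4.46%). Homer2 had the largest positive postnatal difference of the list and Grip2, which binds AMPA receptors, the largest negative one (29.4 ± 1.93 with nicotine and 44.1 ± 7.77 with saccharin; -0.56 ± 0.29). With a mean of at least 20, the extremes in the other exposure were Psd3, an exchange factor for Arf GTPases (0.57 ± 0.35), and Magi2, a scaffold with guanylate kinase homology (-0.49 ± 0.18), whose groups overlapped. Alternatives were run on the medians of the whole lists, members included. The sign of that median turned for the scaffold list (0.03 and -0.0052) in 1 of 16 postnatal alternatives and in 5 of 17 of the other exposure, and for the actin list (0.03 and 0.04) in 2 and 4. For the GTPase list (0.06 and 0.09), which holds Rac1 and Pak2, it turned in none of those run.

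**Figure D5:**
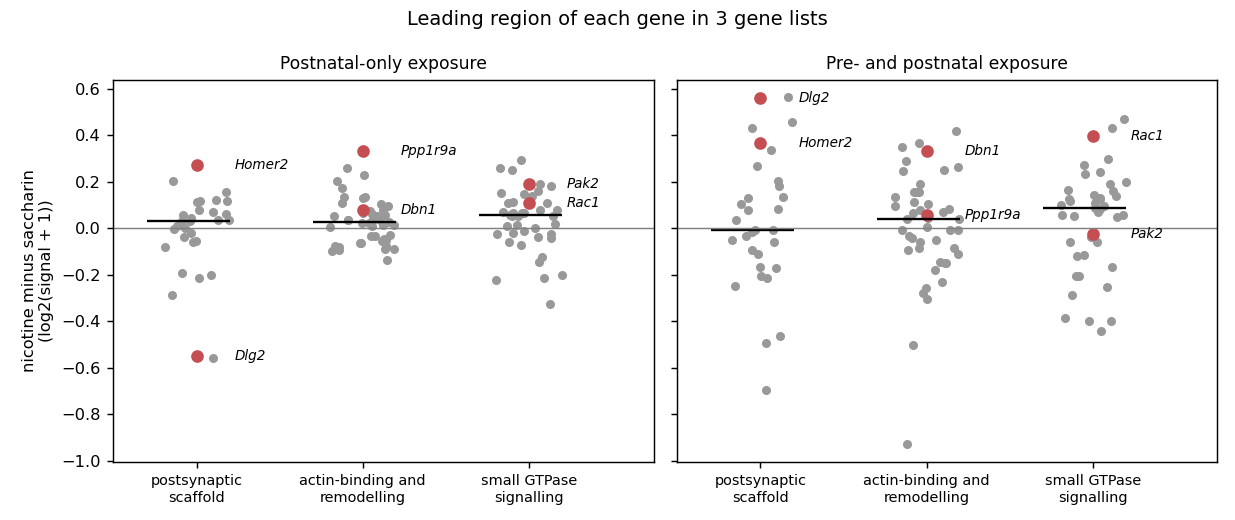
Nicotine minus saccharin on the log2(signal + 1) scale (y axis) for the leading region of each gene in 3 lists (x axis), postnatal-only exposure on the left and exposure before and after birth on the right. Grey points are single genes, red points the named members and lines the list medians; the medians lie between -0.0052 and 0.09, and Dlg2 region 1 is near the low end of its list after postnatal exposure and near the high end in the other.

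Of the cell type markers, 0 were called by limma in either exposure. In the postnatal table summed signal at neuron markers was 1163 to 1166 in nicotine samples and 1169 to 1183 in saccharin samples, at oligodendrocyte markers 679 to 705 and 668 in both, at astrocyte markers 555 to 586 and 552 to 567, and at endothelial markers 306 to 321 and 275 to 327. Microglia markers held 17.9 to 29.1 with nicotine and 18.4 to 28.7 with saccharin, and Cx3cr1, Csf1r, P2ry12, Itgam, Aif1 and Ptprc had no region. In the other exposure neuron markers held 770.3 to 817 with nicotine and 752 to 769 with saccharin, astrocyte markers 283 to 388 and 311 to 341, oligodendrocyte markers 337 to 406 and 350.4 to 374, and endothelial markers 207.1 to 219.9 and 197 to 206.6. Microglia markers held 12.0 to 15.2 with nicotine and 14.7 to 22.8 with saccharin, and both, Irf8 (-0.92 ± 0.72, SE) and Spi1 (-0.51 ± 0.59), had overlapping groups. The sums of neuron and of endothelial markers lay apart with nicotine higher in that exposure, although 4 of 9 neuron and 3 of 6 endothelial markers lay below 0. After postnatal exposure the neuron sum lay apart with nicotine lower, with 6 of 9 markers below 0. The postnatal oligodendrocyte sum lay apart with nicotine higher, although 5 of 9 markers lay below 0. How often sums over other regions lie apart was not counted, so nothing is read from these sums. The part of these cell types in the members' differences was not tested.

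The nearest regions on either side were set beside the members. These 12 flanking regions, at distances from 12463 bp to 1469273 bp, differed by -0.36 to 0.16 in the postnatal table and by -0.38 to 0.54 in the other. Their groups lay apart at 2 of 12 and at 1 of 12, each with nicotine lower, where 14.0% and 4.46% of all regions did so. Senp5, before Pak2, was the one whose groups lay apart with nicotine lower in both exposures (-0.13 and -0.38). Sgce, before Ppp1r9a, had differences of -0.36 and -0.24, with overlapping groups. The nearest was Prr7, at 12463 bp from Dbn1, with -0.07 and -0.06.

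Over 10 samples, with log2 signal centred within each table, the regions most like each member among 9546 named regions were found by Pearson's r. They were Ramp1 (0.856) and Ywhaz (0.833) for Ppp1r9a, Leprotl1 (0.958) and Crmp1 (0.952) for Dbn1, Grik5 (0.935) and Insig2 (0.916) for Pak2, and Bag6 (0.973) and Scap (0.954) for Rac1. For Homer2 Iscu (0.937) is given, for Dlg2 region 1 Cck (0.968) and Dcps (0.958), and for Dlg2 region 2 Gng2 (0.933) and Rack1 (0.924). These values are among the highest of 9546 and are given only as a description.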

How the data were processed

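H3K4me3 ChIP-seq was done on mouse cortex, with 50 mg of tissue fixed in 1% formaldehyde, 18 PCR cycles, fragments of 170 to 300 bp and 36 sequencing cycles, per the labels' protocols. The authors deposited 1 table of signal per exposure on build mm9: read counts in each region, adjusted with edgeR per the submitters' processing notes, with aligner, peak caller and versions not given in the sources used here. Of the 19203 rows in each, 4322 repeated coordinates without values and were left out. Symbols were updated through 11222 matched transcripts (RefSeq, GRCm38.p6).

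From these values, limma 3.58.1 (R 4.3.3, trend) was fitted per exposure to log2(signal + 1), over regions with at least 1 in as many samples as the smaller group, two-sided, with Benjamini-Hochberg adjustment over all regions and a threshold of 0.05. The fits were tried on simulated data with changes larger than any at the members and the same spread at every region. That trial does not show whether differences as small as those of the members would be found. The members and lists were chosen with earlier results of these data known. Per list and exposure, the largest positive and negative difference among genes with a mean of at least 20 were named. Some genes that this rule, the marker lists or the comparison of patterns would name are not reported here. Python 3.11.15 and matplotlib 3.10.9 made the figures.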

Additional observations from a re-analysis of the deposited data

Results flagged for a closer look

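At 2 of the genes named by the rule for the lists, Grip2 and Ugt8a, the groups lay apart in opposite directions in the 2 exposures. The share of all regions that did so was not counted. After postnatal exposure 15.0% of all regions lay apart with nicotine higher and 14.0% with nicotine lower. In the other exposure 4.49% and 4.46% did. Nothing is read from these genes or from those named below, and the difference between the exposures was not tested. At Grip2 the difference was -0.56 ± 0.29 on the log2 scale (SE) after postnatal exposure and 0.43 ± 0.37 after exposure before and after birth, where nicotine samples had 24.4 ± 3.38 and saccharin samples 17.8 ± 1.21 (SD, n = 3 each). At Ugt8a, an oligodendrocyte marker, the differences were 0.21 ± 0.12 and -0.23 ± 0.18. Among the other genes of the lists, chosen after their values were seen, the same held for Dlgap3 (0.05 ± 0.27 and -0.69 ± 0.40) and Myod1 (0.37 ± 0.46 and -1.57 ± 0.61), each with a mean below 20 in at least 1 exposure.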

How the results depend on the processing

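The count of 0 called regions after postnatal exposure was 1 with the replicate number as a replicate block and 9 with the class of share in the strongest regions. Crossed number pairs, added after seeing the data, are the same factor as that class and gave 9. Leaving out 1 sample gave 0 to 31: 7 without nicotine libraries 1 and 2, and 31 without nicotine libraries 3 and 4. In the other exposure the count was 0 with the replicate block, 1 in limma without trend, and 0 to 17 when 1 sample was left out (17 without nicotine library 1). None of these calls was at a member. A postnatal group left with 1 sample is assumed to vary like the other. Replicate numbers did not pair the samples: deviations of same-numbered samples had r = -0.481 postnatally, and -0.097 and -0.098 at the shared numbers 1 and 3 of the other exposure. The cause was not tested. Among members, 1 region was called between the postnatal classes and 0 under quantile normalization, where the class differences of Pak2 (0.059) and Homer2 (0.052) also changed sign. The treatment difference changed sign at Dbn1 in 2 of 16 postnatal alternatives, at Dlg2 region 2 in 2 of 15 and 4 of 16, and at Pak2 in 3 of 17 in the other exposure, and at no other member region. With 2 or 3 samples a group, the median SE was 0.18 and 0.26 on the log2 scale.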
